A study of Mus musculus with 4 samples.

Results

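Intermediate filaments are rope-like polymers of coiled-coil proteins. Vimentin builds them in the cytoplasm of mesenchymal and myeloid cells, glial fibrillary acidic protein in astrocytes, desmin in muscle, and nestin joins vimentin in progenitor cells. Lamins of the A and B types line the inner face of the nuclear envelope, and plectin, a large linker protein of the plakin family, ties filaments to each other and to other cytoskeletal systems. The 8 genes of this set are Vim, Gfap, Nes, Des, Lmna, Lmnb1, Lmnb2 and Plec, taken by symbol from the 45777 genes of the table. They were chosen with the counts of 6OHA libraries against control libraries known, so their values in that contrast are given as a description, without a test.

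Transcripts were measured by RNA-seq in MG5, a line of mouse microglial cells whose genotype is given as WT. Cells of 2 libraries had been treated with 6OHA, a compound known here by its code name that activates the retinoid X receptor (RXR), at 10 µM for 6 h, and cells of 2 libraries were untreated. Both groups grew in medium of which a part had been conditioned by astrocyte-like A1 cells, and it is not stated whether untreated cells received the solvent. The design gives n = 3, of which replicates 1 and 3 of 6OHA and replicates 1 and 2 of control were analysed here. Nothing states that replicates were separate cultures, so the spread between them, and every p below, may be technical. Total counts were 31057950 and 35314782 in 6OHA replicates 1 and 3, and 42541641 and 34406649 in control replicates 1 and 2. Levels between genes are given in TPM, transcript abundance scaled by transcript length and library. The 12 microglia and macrophage markers summed to 7356 to 7817 TPM in 6OHA libraries and 7405 to 7724 TPM in control libraries. The lysosomal glycoprotein gene Cd68 and the receptor gene Csf1r led this list. Its lowest members, named here after their values were seen, were P2ry12, Tmem119 and Cx3cr1, at means of 70.2, 54.6 and 16.7 TPM. The sum does not tell microglia from other macrophages.

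Vim (Entrez gene 22352) lies on chromosome 2 from 13574311 to 13582826 on GRCm38, the assembly that mm10 names. Lmna (16905) lies on chromosome 3 from 88481148 to 88509932, Nes (18008) on chromosome 3 from 87971093 to 87980451, Plec (18810) on chromosome 15 from 76170974 to 76231378 and Lmnb2 (16907) on chromosome 10 from 80901363 to 80918245. Gfap (14580) lies on chromosome 11 from 102887336 to 102897200 and Des (13346) on chromosome 1 from 75360292 to 75368579, while Lmnb1 carries the Entrez number 16906. The counts are per gene and cover all transcripts listed for it, which were 15 for Plec and 4 for Lmna, so lamin A and lamin C, which are splice forms of Lmna, are counted together.

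The 250 bases before the annotated starts of Vim, Lmna and Nes are shown from the RefSeq promoter table of GRCm38.p6 because these are the genes with the lowest 6OHA values relative to control. The windows are chr2:13574061-13574310 on the plus strand for Vim, chr3:88503353-88503602 and chr3:88493313-88493562 on the minus strand for 2 starts of Lmna, and chr3:87970843-87971092 on the plus strand for Nes. Both Lmna windows lie inside the gene, so the bases before its upper end, at 88509932, were not examined. Each window is written 5′ to 3′ with its last base next to the start. Capitals mark exact matches on either strand to the half-site of nuclear receptors, the TATA box, the CCAAT box, the GC box or the AP-1 site, whose letters are given after the sequences.
Vim: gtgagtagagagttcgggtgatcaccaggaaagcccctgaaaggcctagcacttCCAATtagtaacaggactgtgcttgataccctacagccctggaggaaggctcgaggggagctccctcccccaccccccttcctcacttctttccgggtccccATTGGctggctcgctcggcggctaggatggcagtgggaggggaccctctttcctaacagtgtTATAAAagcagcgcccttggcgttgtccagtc
Lmna, start at the higher coordinate: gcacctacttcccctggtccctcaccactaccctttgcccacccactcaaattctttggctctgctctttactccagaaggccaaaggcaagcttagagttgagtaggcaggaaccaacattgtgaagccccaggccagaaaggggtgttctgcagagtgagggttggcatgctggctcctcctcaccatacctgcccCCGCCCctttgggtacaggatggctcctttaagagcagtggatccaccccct
Lmna, start at the lower coordinate: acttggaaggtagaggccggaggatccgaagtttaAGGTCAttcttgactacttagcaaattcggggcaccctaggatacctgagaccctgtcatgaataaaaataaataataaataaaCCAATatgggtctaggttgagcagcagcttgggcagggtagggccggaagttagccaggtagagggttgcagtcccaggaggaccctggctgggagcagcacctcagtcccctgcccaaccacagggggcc
Nes: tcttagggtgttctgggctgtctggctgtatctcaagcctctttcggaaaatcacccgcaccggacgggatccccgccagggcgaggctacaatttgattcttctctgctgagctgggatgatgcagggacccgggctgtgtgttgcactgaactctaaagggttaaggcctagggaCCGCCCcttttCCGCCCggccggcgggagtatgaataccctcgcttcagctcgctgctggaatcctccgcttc

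With -1 as the base before the start, the Vim window held the TATA box, spelled TATAAA, from position -32. It held the CCAAT box, spelled CCAAT, from position -196 and, on the other strand, from position -94. Among all 32851 promoter windows of this length, 12.4% held the TATA box and 33.8% the CCAAT box on either strand. The half-site AGGTCA, which nuclear receptors such as RXR and its partners bind in repeats, was found in the window of 1 of the 2 Lmna starts, from position -215, and 14.0% of all windows held it. The windows of Vim and Nes held no exact half-site. The Lmnb2 window that lies inside its gene and the Gfap window each held 1. Direct repeats of the half-site, each made of 2 copies with 1, 4 or 5 bases of any kind between them, matched 0.0335%, 0.0152% and 0.00913% of all windows, and none of the windows of Vim, Lmna, Nes, Lmnb2, Gfap or Des. The GC box, spelled GGGCGG, occurred 2 times in the Nes window and 1 time in the first Lmna window, and 32.7% of all windows held it. The AP-1 site, spelled TGANTCA, was in none of the windows of these 6 genes, and 6.75% of all windows held it. A match is a description of letters, and a missing match says only that these letters are not in the window.

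Vimentin transcripts made up almost all cytoplasmic intermediate filament mRNA in these cells and were lower after 6OHA. Vim had 1278 and 1318 TPM in 6OHA replicates 1 and 3, against 2244 and 2359.6 TPM in control replicates 1 and 2. It stood at rank 76 and 79 among the genes of the table by TPM in the 6OHA libraries and at rank 35 and 33 in the control libraries. Of the summed TPM of Vim, Nes, Des and Gfap, Vim gave 99.7% and 99.6% in 6OHA libraries and 99.7% and 99.8% in control libraries.

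In scaled counts-per-million (CPM, over the tested genes), Vim had 1101 and 1133 CPM in 6OHA replicates 1 and 3, against 1881 and 2045 CPM in control replicates 1 and 2. Both 6OHA libraries lay below both controls, and the 4 ratios of a 6OHA to a control library ran from 0.539 to 0.602. The means were 1117 ± 22.4 CPM in 6OHA and 1963 ± 116 CPM in control (SD, n = 2 each), a log2 fold change of -0.81 (SE 0.09), or 1.76-fold lower. In a bulk sample, fewer cells with a transcript and less of it per cell cannot be told apart. Raw counts behind these values were 33918 and 39576 for 6OHA and 80707 and 70959 for control, so counting error is small beside the spread between libraries. The ratio of Vim to the beta-actin gene Actb, in TPM, was 0.308 and 0.306 in 6OHA libraries and 0.549 and 0.499 in control libraries.

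The fit across all 14634 genes that passed a filter on low counts was edgeR's quasi-likelihood test, with a Benjamini-Hochberg adjusted p under 0.05 as the threshold. It placed 2.02% of genes past the threshold, 0.629% as lower and 1.39% as higher in 6OHA. Of the 8 genes of the set, 6 passed the filter. Since the set was chosen on this contrast, no call is given for them, and nothing is read from their counts. For all 6 the log2 fold change was negative, and their median was -0.40, beside a median of -0.01 over all tested genes, of which 51.4% were below 0. Both 6OHA libraries lay below both controls for 5 of the 6, against 20.1% of all tested genes. As a description, 2 of the tested genes had a larger fall in mean TPM than Vim, a measure that depends on the level of a gene. In log2 fold change, 39 of the 92 genes past the threshold as lower in 6OHA fell further than Vim.

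**Figure D1:**
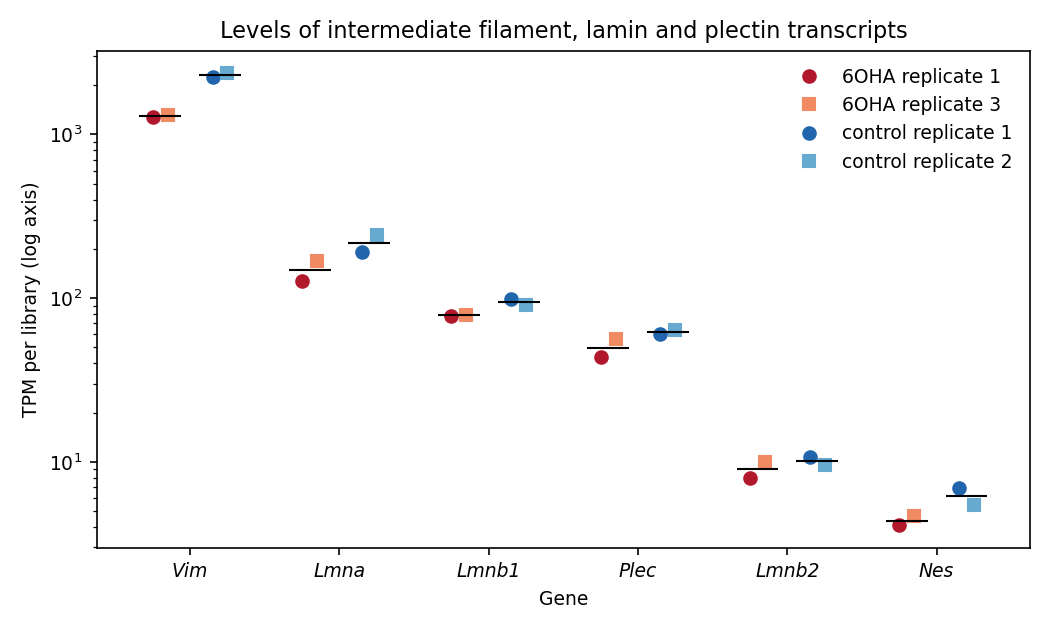
TPM of the 6 genes that passed the filter (log axis), with each library a point, 6OHA left of control, and short bars at the group means of 2 libraries. Vim lay at 1278 and 1318 TPM in 6OHA and at 2244 and 2359.6 TPM in control, and Nes, the lowest gene shown, at 4.10 to 4.66 TPM in 6OHA and 5.43 to 6.96 TPM in control.

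The order of levels by TPM was Vim, Lmna, Lmnb1, Plec, Lmnb2 and Nes in each of the 4 libraries, as the plot of levels shows. Within each group, the libraries of genes next to each other in this order did not overlap. The lamin genes followed Vim, with mean levels of 148 ± 29.5 TPM for Lmna in 6OHA against 216 ± 37.2 TPM in control. Lmnb1 had 78.4 ± 0.298 TPM in 6OHA against 95.0 ± 6.06 TPM in control, and Plec 49.8 ± 9.09 TPM in 6OHA against 62.1 ± 2.01 TPM in control (SD, n = 2 each).

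Nes, whose product nestin copolymerises with vimentin, was a low transcript. It had 364 and 468 counts in 6OHA replicates 1 and 3, against 837 and 546 counts in control replicates 1 and 2. After scaling these were 11.8 and 13.4 CPM in 6OHA against 19.5 and 15.7 CPM in control, so that the groups did not overlap. The log2 fold change was -0.49 (SE 0.15), with ratios of single libraries from 0.606 to 0.851.

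Gfap and Des were at or near 0. Gfap had 0 counts in all 4 libraries, which allows a level of up to 0.0966 and 0.0850 CPM in the 6OHA libraries and up to 0.0705 and 0.0872 CPM in the controls. These limits stand for 3 counts of a library's total and cover counting error alone. Des, the muscle filament gene, had 4 counts in 6OHA replicate 1 and 0 in 6OHA replicate 3 and in both controls. Neither gene passed the filter, and no fold is given for them. The 3′ end of Des overlaps the noncoding gene Gm15179, on whose transcripts 5.12% of its 31-base stretches occur in reverse, and Gm15179 had 0 counts in all 4 libraries.

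Lmna, the A-type lamin gene, varied between the libraries of both groups. It had 149 and 191 CPM in 6OHA replicates 1 and 3, against 213 and 282 CPM in control replicates 1 and 2. The groups did not overlap, but 6OHA replicate 3 stood at 0.898 of control replicate 1, while 6OHA replicate 1 stood at 0.527 of control replicate 2. The means were 169.9 ± 30.1 CPM in 6OHA and 247 ± 48.8 CPM in control, a log2 fold change of -0.54 (SE 0.15). Its log2 fold change was -0.37 with 6OHA replicate 1 left out and -0.73 with 6OHA replicate 3 left out. With control replicate 1 left out it was -0.73, and with control replicate 2 left out -0.32.

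The B-type lamins, which stay anchored in the membrane by a farnesyl group, differed less between the groups. Lmnb1 had 105 CPM in both 6OHA libraries, against 129 and 122 CPM in control replicates 1 and 2, and the groups did not overlap. Its log2 fold change was -0.26 (SE 0.09), and the ratios of single libraries ran from 0.810 to 0.860. Lmnb2 had 12.7 and 15.8 CPM in 6OHA replicates 1 and 3, against 16.5 and 15.3 CPM in control replicates 1 and 2. Here the groups overlapped, since 6OHA replicate 3 exceeded control replicate 2, and the log2 fold change was -0.15 (SE 0.14).

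**Figure D2:**
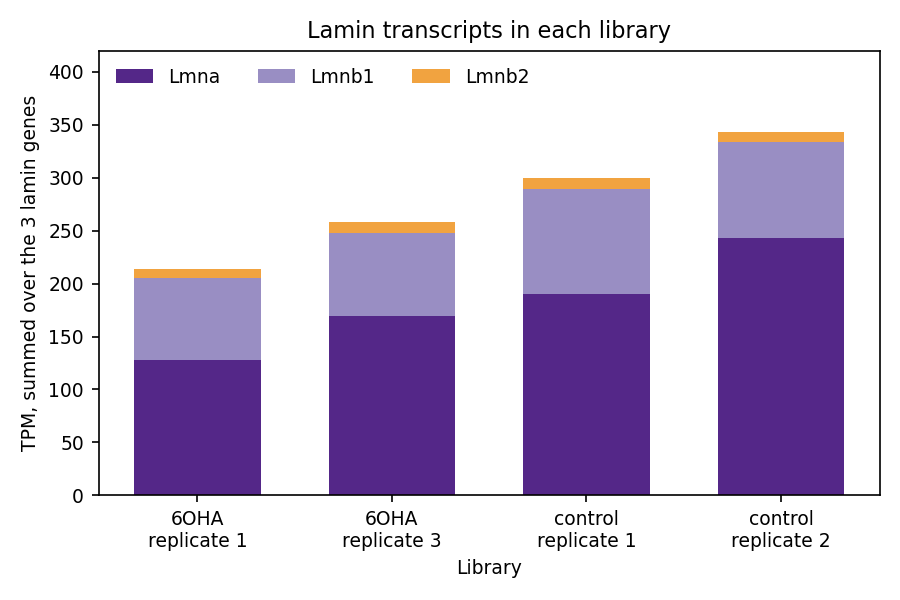
Stacked TPM of the 3 lamin genes in each library, with the 6OHA libraries left of the controls. The summed height was 214 and 258 TPM in 6OHA and 300.1 and 343 TPM in control, and Lmna was the largest part in each library.

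The make-up of the lamin transcripts varied within both groups. Lmna gave 59.6% and 65.6% of the summed lamin TPM in 6OHA replicates 1 and 3, and 63.4% and 70.8% in control replicates 1 and 2. Lmnb1 gave 36.6% and 30.5% in 6OHA and 33.1% and 26.4% in control, and Lmnb2 gave 3.75% and 3.88% in 6OHA and 3.56% and 2.80% in control. The groups overlapped in the shares of Lmna and Lmnb1, while in the share of Lmnb2 and in the summed TPM of the 3 genes, shown by the stacked bars, they did not. Vim stood at 5.98 and 5.11 times the lamin sum in 6OHA libraries and at 7.48 and 6.88 times in control libraries.

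Plec, the filament linker gene, had 304 and 393 CPM in 6OHA replicates 1 and 3, against 414 and 448 CPM in control replicates 1 and 2. The groups did not overlap, with 6OHA replicate 3 at 0.949 of control replicate 1. The means were 349 ± 63.2 CPM in 6OHA and 431 ± 23.6 CPM in control, a log2 fold change of -0.31 (SE 0.12). It was -0.13 without 6OHA replicate 1 and -0.50 without 6OHA replicate 3.

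**Figure D3:**
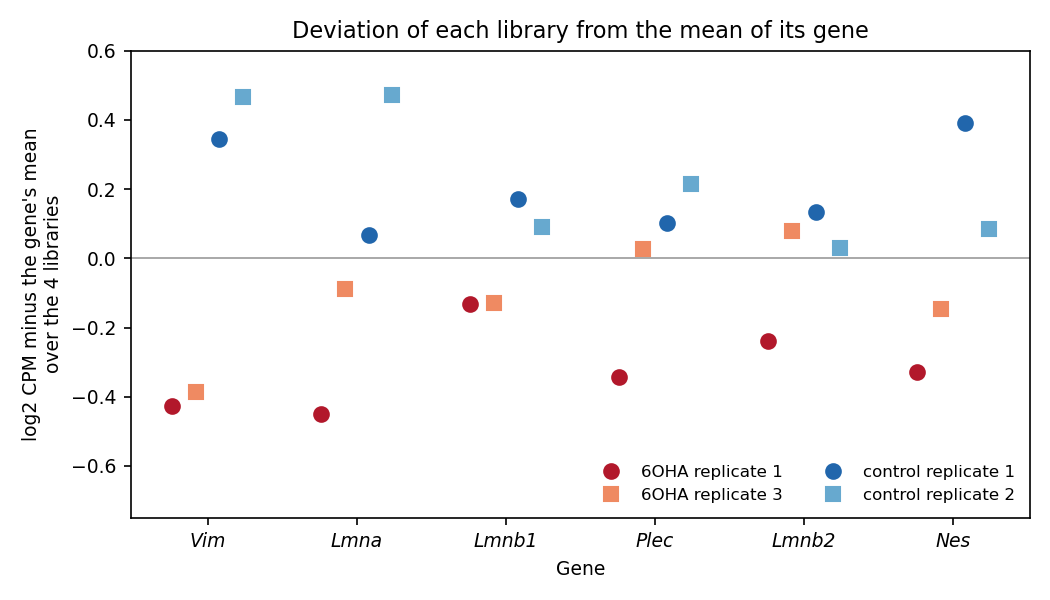
Deviation of each library from the mean of its gene in log2 CPM for the 6 genes that passed the filter, with 6OHA libraries in red and control libraries in blue. The 6OHA libraries of Vim lay close together at -0.43 and -0.39 and its controls at 0.35 and 0.47, while those of Lmna lay at -0.45 and -0.09 in 6OHA and 0.07 and 0.47 in control.

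The libraries also differed with the GC content of genes. Genes with a transcript GC content above 54.9% averaged -0.09 in 6OHA replicate 1 and 0.08 in 6OHA replicate 3 around their own means in log2 CPM, and -0.11 in control replicate 1 and 0.12 in control replicate 2. Genes below 43.5% went the other way, at 0.04 and -0.05 in 6OHA replicates 1 and 3 and 0.09 and -0.08 in control replicates 1 and 2. The longest transcripts had a GC content of 46.5% for Vim, 53.1% for Lmna, 53.3% for Lmnb1, 55.5% for Nes, 57.6% for Lmnb2 and 61.3% for Plec. Vim, Lmna and Plec were lower in replicate 1 of each group. For Lmna and Plec, 6OHA replicate 3 stood at 1.29 times 6OHA replicate 1. Control replicate 2 stood at 1.32 times control replicate 1 for Lmna and 1.08 times for Plec. For Vim, of lower GC content than these, the ratios were 1.03 in 6OHA and 1.09 in control. Nes and Lmnb2, above a GC content of 54.9% as Plec is, stood at 1.13 and 1.25 times in 6OHA but at 0.807 and 0.930 times in control. For Lmnb1, of nearly the same GC content as Lmna, these ratios were 1.00 in 6OHA and 0.945 in control. With a GC offset for each library the log2 fold changes were -0.82 (SE 0.08) for Vim, -0.54 (SE 0.11) for Lmna, -0.48 (SE 0.14) for Nes, -0.26 (SE 0.07) for Lmnb1, -0.26 (SE 0.08) for Plec and -0.14 (SE 0.13) for Lmnb2.

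Sharing of sequence was small for the measured genes. Of the 31-base stretches of their transcripts, 0.187% for Vim, 0% for Nes and Lmnb1, 1.14% for Lmna, 1.16% for Plec and 1.41% for Lmnb2 also occurred in another gene on the same strand. Plec spans the microRNA gene Mir1942, which had at most 2 counts in a library.

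The genes whose values over the 4 libraries were most like those of Vim were Olfm1, a secreted olfactomedin gene, and Pcdh7, a protocadherin gene. Likeness was taken as the smallest largest difference in log2 CPM around the gene's mean over the 4 libraries. The search covered 9604 tested genes with a mean of at least 5 CPM, with clone, predicted and pseudogene names left out. This largest difference was 0.08 for Olfm1 and 0.09 for Pcdh7. Olfm1 averaged 7.70 ± 0.240 CPM after 6OHA, against 13.9 ± 1.69 CPM without it. Pcdh7 averaged 4.49 ± 0.289 CPM in 6OHA and 7.48 ± 0.226 CPM in control (SD, n = 2 each). Over 4 libraries such likeness is a description only.

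Among 89 related genes in 8 groups, 60 passed the filter and none lay past the threshold in edgeR's quasi-likelihood test. At an unadjusted p under 0.05 there were 6 of the 60, against 10.9% of all tested genes, and the DESeq2 test called 3 of the 58 to which it gave an adjusted p, against 3.46% of all such genes. Their median log2 fold change was -0.03, with 37 below 0 and 23 above it. The GC offset, given below for single genes, placed 4 of the related genes past the threshold. Over all tested genes it placed 799 there, against 295 without it.

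Of 25 other cytoplasmic filament genes, 16 had 0 counts in all 4 libraries, among them the epithelial keratin genes Krt8 and Krt18, and 3 passed the filter. Krt80, at a mean of 1.48 TPM, and Prph, which encodes the neuronal filament protein peripherin, at 1.29 TPM, had the highest levels, and the 3 tested genes had a median log2 fold change of -0.34. Neither Krt80 at -0.34 (adjusted p = 0.816) nor Prph at -0.36 (adjusted p = 0.854) passed edgeR's test.

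Of 6 plakin genes besides Plec, 2 passed the filter, Dst and Macf1, with a median of -0.18. Dst, the gene of dystonin, had 392 and 429 CPM in 6OHA replicates 1 and 3, against 617 and 512 CPM in control replicates 1 and 2. The groups did not overlap, and the log2 fold change was -0.46 (SE 0.11, edgeR adjusted p = 0.0603). Without control replicate 2 it passed (adjusted p = 0.00407), as it did under the DESeq2 test (0.00214), upper-quartile scaling (0.0428) and the GC offset (0.00395), while over the other alternatives the adjusted p was above the threshold. Macf1, which links actin to microtubules, was at 0.10 (adjusted p = 0.898).

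At the nuclear envelope, 7 of 9 genes of the LINC complex, which couples the lamina to the cytoskeleton, passed the filter and none was called, with a median of -0.13. The inner membrane anchors Sun2 and Sun1 were at -0.04 (SE 0.11, adjusted p = 0.959) and 0.02 (SE 0.10, adjusted p = 0.979) in edgeR's test. Syne3, which encodes a nesprin that binds plectin and is named here after its values were seen, had 17.1 and 17.2 CPM in 6OHA, against 22.9 and 23.8 CPM in control (log2 fold change -0.44, SE 0.12, edgeR adjusted p = 0.105). It passed with the GC offset (adjusted p = 0.0184).

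All 12 genes of lamin-binding proteins of the inner nuclear membrane, and of proteins that act with them, passed the filter. Of these 0 were called, with a median of 0.05 and a range from -0.13 to 0.19. Tor1aip2 was at 0.05 (adjusted p = 0.939) and Banf1, which bridges DNA and lamina, at -0.01 (adjusted p = 0.990) in edgeR's test. All 5 enzymes of lamin prenylation and processing passed the filter, with a median of -0.06, and 0 were called. Zmpste24, the protease that trims prelamin A, was at -0.04 (adjusted p = 0.961), and the farnesyltransferase subunit gene Fnta at -0.06 (adjusted p = 0.940).

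Of 12 genes of kinases that phosphorylate filaments and their cyclin, all passed the filter and 0 were called, with a median of -0.00272. The cyclin gene Ccnb1 was at 0.10 (adjusted p = 0.854) and the kinase gene Pak2 at -0.03 (adjusted p = 0.962) in edgeR's test. Of 8 genes of proteases and deiminases that act on filaments, 7 passed and 0 were called, with a median of -0.13. The calpain gene Capn2 had 197 and 199 CPM in 6OHA, against 254 and 251 CPM in control (log2 fold change -0.35, SE 0.09, edgeR adjusted p = 0.0749). It passed under the DESeq2 test (adjusted p = 0.00781) and with the GC offset (0.00321), and its small subunit gene Capns1 was at 0.11 (adjusted p = 0.832).

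The other cytoskeletal systems gave a comparison for scale. All 12 actin and tubulin genes passed the filter and 0 were called, with a median of -0.04. Actb was at -0.05 (SE 0.10, adjusted p = 0.947) and Actg1 at 0.02 (SE 0.09, adjusted p = 0.975) in edgeR's test. Tubb6, a beta-tubulin gene named here after its values were seen, was at 0.40 (SE 0.11, adjusted p = 0.104), and passed without control replicate 2 (0.0255), under the DESeq2 test (0.0112) and with the GC offset (0.000857). Whether Vim differs from these genes in its response was not tested.

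**Figure D4:**
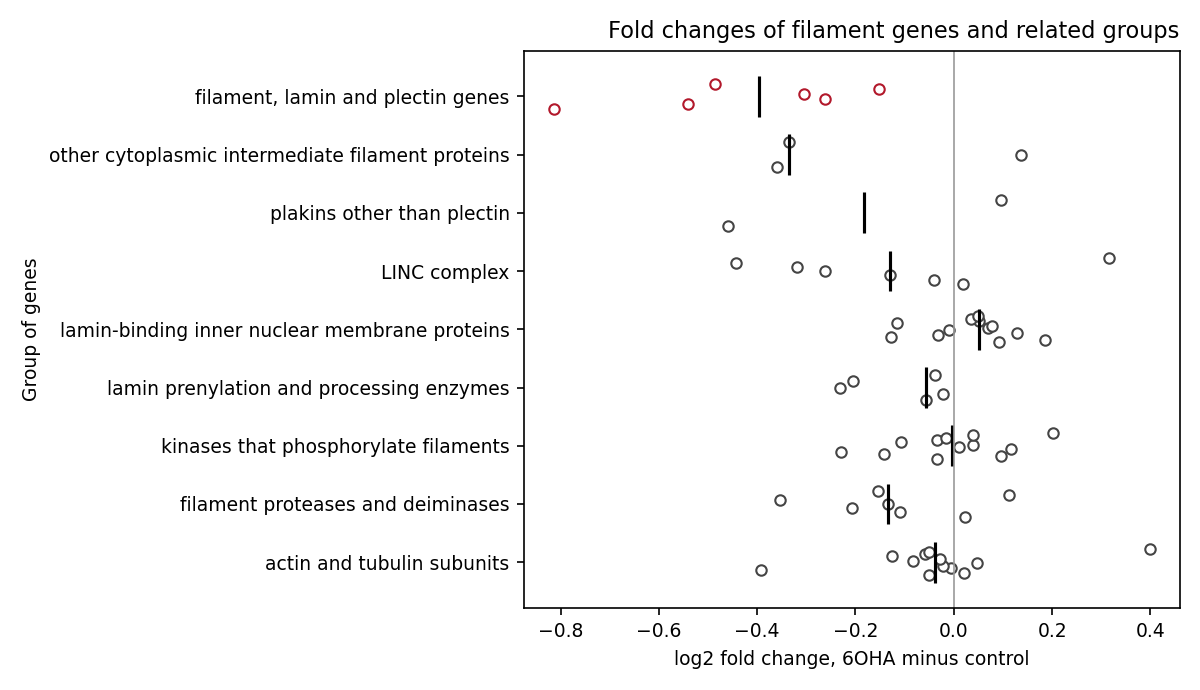
Log2 fold change (6OHA minus control) of each tested gene, one row per group of genes, with vertical bars at the group medians and the genes of the set in red in the top row. Vim lay at -0.81, and the 60 related genes below lay between -0.46 and 0.40.

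Markers of astrocytes and neurons were low in these cells. Of 6 astrocyte markers besides Gfap, Aqp4 had 0 counts in all libraries, and the list summed to 10.0 to 10.4 TPM in 6OHA and 15.3 TPM in both controls. Its members Aldh1l1, at -0.46 (adjusted p = 0.128), and Slc1a2, at -0.72 (adjusted p = 0.101), did not pass edgeR's test. For both genes the 6OHA libraries lay below the controls, as they did for 20.1% of all tested genes. Both passed with the GC offset (adjusted p = 0.0255 for Aldh1l1 and 0.0388 for Slc1a2). Over all tested genes 799 passed with this offset, against 295 without it. Of 6 neuronal markers, 3 had 0 counts in all libraries, and the list summed to 4.51 to 5.87 TPM in 6OHA and 8.25 to 8.29 TPM in control. Its member Map2 fell, at -0.76 (SE 0.15, edgeR adjusted p = 0.0273). The call was lost in 6 of 11 alternatives, without 6OHA replicate 1 (0.132), 6OHA replicate 3 (0.0616) or control replicate 1 (0.0590), with no filter (0.0924) and by limma on log2(FPKM + 1) (0.288) or log2(TPM + 1) (0.334). Snap25 was at -0.48 (edgeR adjusted p = 0.379). The part of these transcripts in the values of Vim was not tested.

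Of 9 markers of fibroblasts, muscle and pericytes, cells rich in vimentin or desmin, 6 had 0 counts in all libraries, among them Col1a2, Dcn, Pdgfrb and Myod1. Col1a1 had 4 counts in 6OHA replicate 1 and in control replicate 2 and 0 in the others, and Myh11 was at 0.24 (adjusted p = 0.944) in edgeR's test, and the list summed to 0.188 to 0.195 TPM in 6OHA and 0.141 to 0.178 TPM in control. Of 6 oligodendrocyte markers, 3 had 0 counts, and the list summed to 47.7 to 49.3 TPM in 6OHA and 41.7 to 43.1 TPM in control, mostly Mbp, at 0.31 (adjusted p = 0.170, and 0.0157 with the GC offset), while Mag was at -0.44 (adjusted p = 0.319). The 5 endothelial markers summed to 79.2 to 80.6 TPM in 6OHA and 86.1 to 97.5 TPM in control, mostly Kdr, a receptor gene whose level was above that of Plec, at -0.21 (adjusted p = 0.441), with Cdh5 at -0.09 (adjusted p = 0.940). Of the 12 microglia and macrophage markers, 1 fell, the fractalkine receptor gene Cx3cr1, named here after its values were seen, at -0.81 (SE 0.11, adjusted p = 0.00257), while Csf1r was at 0.10 (adjusted p = 0.823) and Cd68 at 0.03 (adjusted p = 0.973).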

How the data were processed

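Libraries of poly-A RNA had been made with a stranded kit, per the labels' protocols. Whole-number counts of reads for each gene were used as deposited, not normalized, per the file headers. The deposited FPKM values were fragments scaled by the authors by transcript length and library size, and the deposited TPM values were scaled by the authors to 1000000 per library, per the file headers. StringTie 2.1.3b, HISAT2 2.1.0, Bowtie2, Trimmomatic 0.38, SAMtools 1.9, bcl2fastq 2.20.0 and the build mm10 are named, without roles, per the submitters' processing notes. How reads were counted, and whether strand was used, is not given in the sources used here.

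The filterByExpr rule of edgeR 4.0.16 left 14634 of 45777 genes. Counts were scaled by TMM and tested between the groups by its quasi-likelihood test (legacy mode off), at a Benjamini-Hochberg threshold of 0.05. Each SE is the size of the log2 fold change divided by the square root of that test's F. It is thus derived from the test, and for the genes of the set it is given as a description. R 4.3.3, limma 3.58.1, DESeq2 1.42.0, Python 3.11.15, pandas 2.3.3 and numpy 2.4.6 were used, and the fit was tested on simulated data. CPM are TMM-scaled, and log2 CPM used a prior count of 2. A GC value from GENCODE M21 transcripts was held by 93.3% of tested genes. The 8 genes, the lists and the tests were chosen with earlier results of these data known. From each list the text names members past the threshold (at most 4) and the 2 with the highest mean TPM, and for Vim the 2 genes of most similar values. Alternatives were other scalings, no filter, DESeq2, limma on log2(FPKM + 1) and log2(TPM + 1), a GC offset fitted per library, a threshold of 0.01 and leaving out each library, where a lone library is assumed to vary like the other group. Intervals and limits of 3 counts cover counting error only. Cells given bexarotene, which the design also names, were not analysed here.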

Additional observations from a re-analysis of the deposited data

How the results depend on the processing

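The count of 295 genes past the threshold (203 higher, 92 lower) was 120 (96 higher, 24 lower) with no filter on low counts, 135 (101 and 34) by limma on log2(FPKM + 1), 152 (120 and 32) on log2(TPM + 1), 799 (473 and 326) with the GC offset and 149 (118 and 31) at a threshold of 0.01. Leaving out 1 library gave 265 to 501 genes, with 167 to 315 higher and 77 to 186 lower, the most of them without control replicate 2. The 0 called genes of the related lists became 1 under upper-quartile scaling, 3 under the DESeq2 test, 4 with the GC offset and 0 to 3 when 1 library was left out. Causes of these shifts were not tested.

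Over 11 alternatives the log2 fold change of Vim ran from -0.87 to -0.75, of Lmna from -0.73 to -0.32, of Nes from -0.63 to -0.32, of Lmnb1 from -0.31 to -0.22, of Plec from -0.50 to -0.13 and of Lmnb2 from -0.32 to -0.00370. These are the values on which the genes were chosen, so their spread is given as a description. No paired analysis was possible because the groups share only replicate number 1. At 0 to 4 counts a library, Gfap and Des could not be compared.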
